A study of Monascus purpureus with 9 samples.

Results

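In mycelium of the pigment-producing mould Monascus purpureus, 107 genes lay in stretches of consecutive gene numbers whose levels were raised in both a Swd3 knockout and a Set1 knockout. The stretches, called runs below, were found by walking through the numbered genes in order. A run is 5 or more consecutive numbers, each with a row in the table, at which the mean level was at least 2-fold higher in each knockout than in the wild type (WT) after 1 FPKM was added to both means. FPKM is a fragment count corrected for the transcript's length and the library's size. The rule found 21 runs that hold 139 of the 8918 numbered genes, and the whole table has 9869 rows. The members were chosen by these measured group means. A gene of a run counted as a member when its WT mean was at least 0.1 and under 1000 FPKM and its changes in both knockouts were less than 1.5-fold apart.

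The groups were 3 libraries of the Swd3 knockout, 3 of the Set1 knockout and 3 of the WT strain. Total RNA came from mycelium that all strains had grown for 2 days in PDB medium. The labels give no parent strain, no number of independent transformants and no complemented strain, so each knockout is read here as the one labelled genotype. Nor do they state that libraries of the same strain were separate cultures, so the spread between libraries may be technical.

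Set1 is the methyltransferase and Swd3 a structural subunit of COMPASS, the complex that methylates a lysine of histone H3 near the start of transcribed genes. Filamentous fungi keep many genes of a secondary metabolite pathway side by side on a chromosome, and such clusters are often silent under common culture conditions. In Aspergillus nidulans, loss of the COMPASS subunit CclA activates clusters that are otherwise silent. These facts are background. The table pairs no number with a gene name, and 0 of its 9869 rows matched an entry of RefSeq's list for assembly ASM2599979v1, which holds 9270 genes, so no function, sequence or chromosome can be given for a member and the transcripts of Set1 and Swd3 were not looked up. How the numbers relate to positions in the genome is not given in the sources used here. Consecutive numbers are therefore neighbours in the numbering only.

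**Figure D1:**
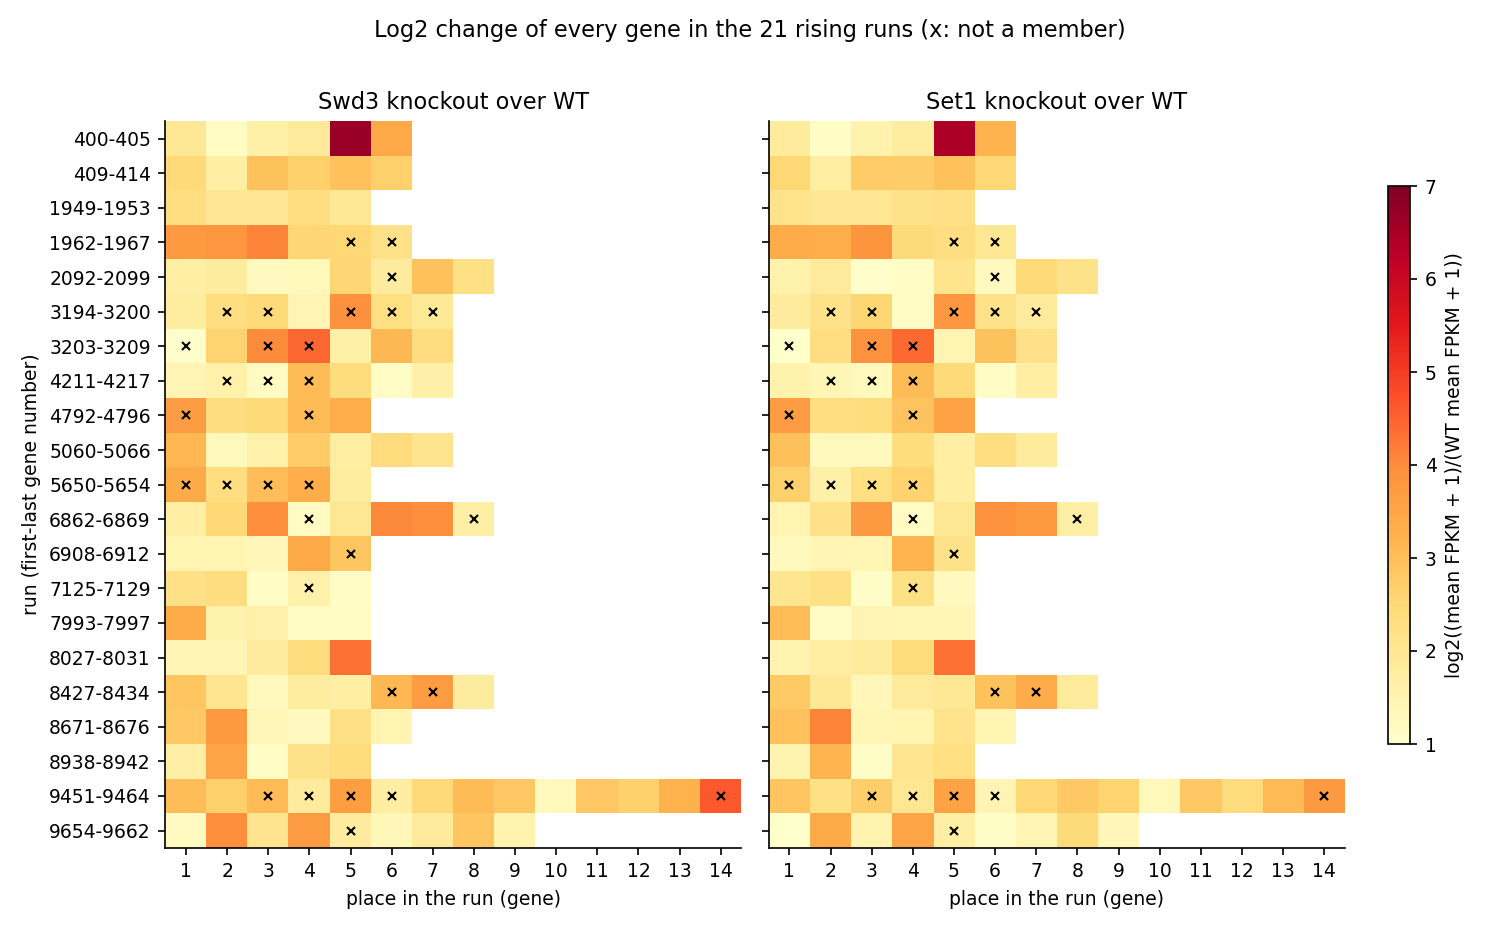
Colour gives the log2 change of each gene over WT, as log2 of the ratio of group means after adding 1 FPKM, in the Swd3 knockout on the left and the Set1 knockout on the right. Each row is 1 of the 21 runs, each cell is 1 gene in number order, and a cross marks a gene of the run that is not a member. The longest run, 9451 to 9464, spans 14 cells, and the darkest cell is gene_404 at 6.67 and 6.43.

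The runs were mostly short. Of the 21, 8 had 5 genes, 4 had 6, 4 had 7, 3 had 8, 1 had 9 and 1 had 14. They lay across the whole numbering, from gene_400 to gene_9662, with a median distance of 263 numbers from one run to the next. In 3 places the next run began within 15 numbers: 400 to 405 lay 4 numbers before 409 to 414, 1949 to 1953 lay 9 before 1962 to 1967, and 3194 to 3200 lay 3 before 3203 to 3209. All genes were members in 8 runs. In the other 13 runs, 24 genes were left out because their WT mean was under 0.1 FPKM and 8 because the changes in the knockouts differed by 1.5-fold or more.

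Runs of this length were a small part of what was raised. Over the 8918 numbered genes, 1184 (13.3%) were at least 2-fold higher in both knockouts, and 11.7% of these lay in runs of 5 or more. The rest were 580 single genes, 113 pairs, 53 runs of 3 genes and 20 runs of 4. For the 715 genes (8.02%) that were at least 2-fold lower in both knockouts, only 2 runs reached 5 genes, and none was longer. These counts follow from the rule and were not tested.

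Numbers without a row limit the runs. Between the first number, 2, and the last, 10020, 1101 of 10019 numbers have no row and were not analysed here, and 9 of the 21 runs stop at such a number on at least one side. Letting a run pass over missing numbers, a choice made after the data were seen, gave 25 runs. The longest then reached from 9451 to 9468 and held 17 genes across 1 missing number.

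WT mycelium held little RNA of the members, and the knockouts held moderate amounts. The median of the members' mean levels was 14.1 FPKM in the Swd3 knockout, 12.9 FPKM in the Set1 knockout and 1.83 FPKM in WT. The medians over all numbered genes were 15.7, 15.3 and 17.5 FPKM in the same groups. Ranked among all numbered genes, the members had a median percentile of 47.0 in the Swd3 knockout and 45.4 in the Set1 knockout, against 14.4 in WT. In bulk mycelium, fewer expressing hyphae and less RNA per cell cannot be told apart.

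The members spread over a wide range of levels. Their means ran from 1.84 to 1104 FPKM in the Swd3 knockout, from 1.58 to 932 FPKM in the Set1 knockout and from 0.112 to 196 FPKM in WT. The fold limit and the WT minimum of the rule by themselves kept every member above 1 FPKM in both knockouts. Of all numbered genes, 4.22% in the Swd3 knockout and 4.23% in the Set1 knockout were under 1 FPKM. In WT, 39 members (36.4%) and 10.3% of all numbered genes were that low. At 20 FPKM or more were 42 members in the Swd3 knockout, 39 in the Set1 knockout and 4 in WT. At 100 FPKM or more were 6 members in the Swd3 knockout, 4 in the Set1 knockout and 1 in WT.

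**Figure D2:**
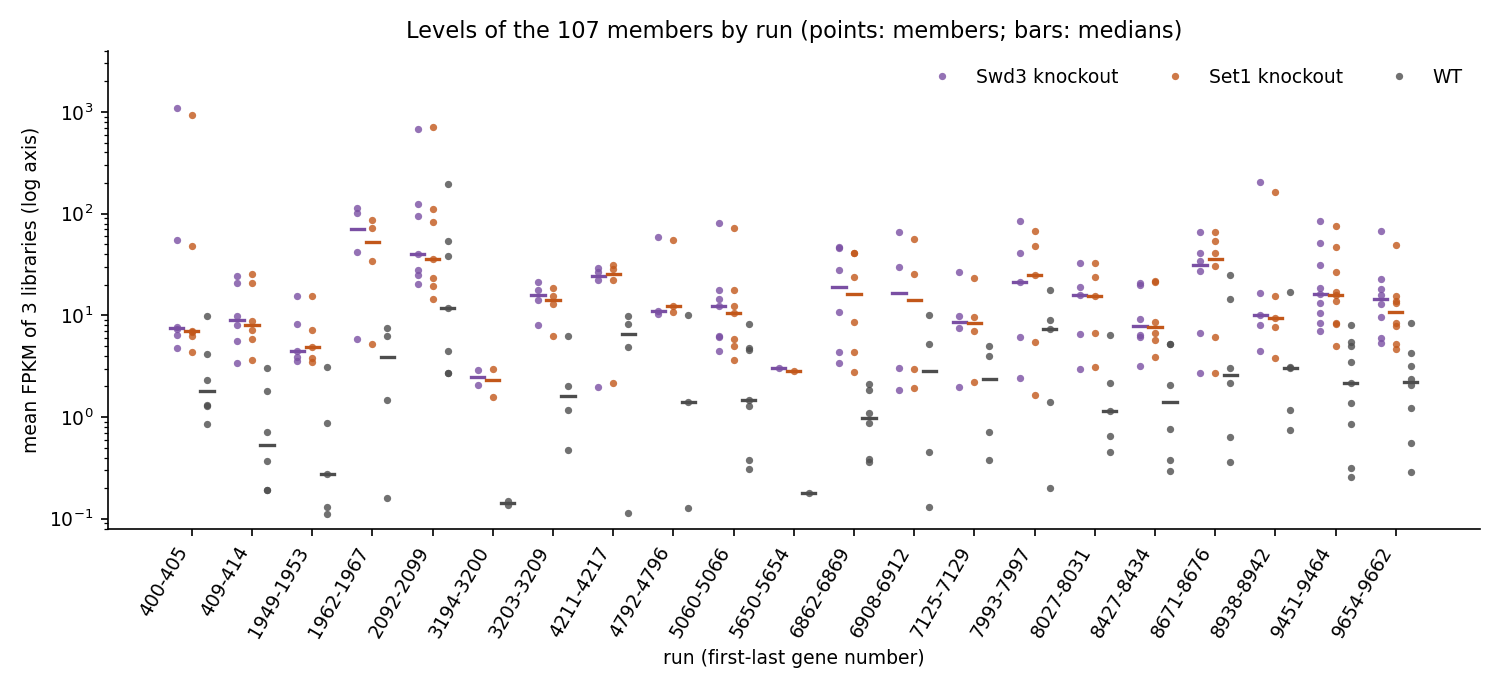
Points are the mean FPKM (3 libraries, log axis) of each of the 107 members, with the Swd3 knockout left, the Set1 knockout in the middle and WT right within each run, and short bars are the medians of the run. Within most runs the WT points reach from under 1 FPKM to several FPKM. The highest points are gene_404 in the run 400 to 405 and gene_2093 in the run 2092 to 2099.

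The change was large and close to equal in both knockouts, which the rule in part fixes. On the log2 scale with 1 FPKM added, the members' median change over WT was 2.13 in the Swd3 knockout (quartiles 1.57 and 2.84) and 2.04 in the Set1 knockout (quartiles 1.46 and 2.67). Without the added 1 FPKM, the median ratio of means was 8.79-fold in the Swd3 knockout and 7.78-fold in the Set1 knockout. Over all numbered genes, the median log2 changes were -0.06 and -0.07. Changes of at least 4-fold in both knockouts were seen in 54 of the 107 members, and in 242 of the 1045 genes outside the runs that were 2-fold higher in both. At least 8-fold were 17 of the 107 members and 54 of the 1045. The 1045 were not held to the members' limits on the WT mean and on the difference between the knockouts.

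All 107 members passed the filter of at least 1 FPKM in at least 3 of the 9 libraries, which 9153 rows of the table passed. The rule nearly fixed this, and the 39 members under 1 FPKM in WT passed through the knockout libraries, where they are high. In the limma fit over the 9153 rows, 107 of 107 members were called higher in the Swd3 knockout and 107 of 107 in the Set1 knockout at an adjusted p under 0.05. Among all rows tested, 38.2% were called higher in the Swd3 knockout (42.5% lower), 37.8% in the Set1 knockout (43.3% lower) and 34.9% in both. The values of 107 members in each knockout lay above all 3 WT values, as did those of 38.0% of all rows for the Swd3 knockout and 38.5% for the Set1 knockout. Since the same libraries and means chose the members, their counts are a description.

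The libraries of each group were close to each other. The mean log2(FPKM + 1) over the 107 members was 4.0 to 4.06 in the Swd3 knockout libraries, 3.90 to 3.96 in the Set1 knockout libraries and 1.71 to 1.75 in the WT libraries. Over all numbered genes, 377 to 404, 377 to 398 and 923 to 964 were under 1 FPKM in the same groups, and the summed FPKM of the table was 708044 to 712844, 722396 to 729434 and 705678 to 715570. The part of these wider differences in the members' values was not tested.

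The longest run, 9451 to 9464, had 14 genes, of which 9 were members. Its highest member, gene_9463, had 84.8, 88.3 and 80.5 FPKM in the Swd3 knockout, 77.1, 76.4 and 74.8 FPKM in the Set1 knockout, and 7.99, 8.54 and 7.46 FPKM in WT. Both knockouts stood clear of WT in all libraries, and the ratio of means was 10.6-fold in the Swd3 knockout and 9.52-fold in the Set1 knockout. This gene also had the largest log2 change among the members of the run, 3.25 and 3.1.

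This run held both strongly and weakly changed genes. The members' log2 changes ran from 1.24 to 3.25 in the Swd3 knockout and from 1.3 to 3.1 in the Set1 knockout. The 5 genes left out include gene_9464, the last of the run, with 83.9, 71.2 and 71.7 FPKM in the Swd3 knockout, 43.8, 38.5 and 40.7 FPKM in the Set1 knockout, and 1.85, 1.91 and 2.63 FPKM in WT. Both knockouts were far above WT, but the Swd3 values also lay above all Set1 values, and so its changes, 4.61 and 3.75, were too far apart for a member.

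The other 4 genes left out had WT means under 0.1 FPKM. For gene_9455, the libraries held 11.5, 12.7 and 10.9 FPKM in the Swd3 knockout, 10.4, 10.6 and 11.8 FPKM in the Set1 knockout, and 0, 0.0806 and 0 FPKM in WT. The groups are separated by more than 10 FPKM, and a ratio against a WT group listed at 0 in most libraries is not given. Beyond the run, gene_9450 on one side averaged 5.64 FPKM in the Swd3 knockout, 4.56 FPKM in the Set1 knockout and 8.83 FPKM in WT. On the other side the next number has no row, and after it gene_9466, gene_9467 and gene_9468 were again at least 2-fold higher in both knockouts.

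**Figure D3:**
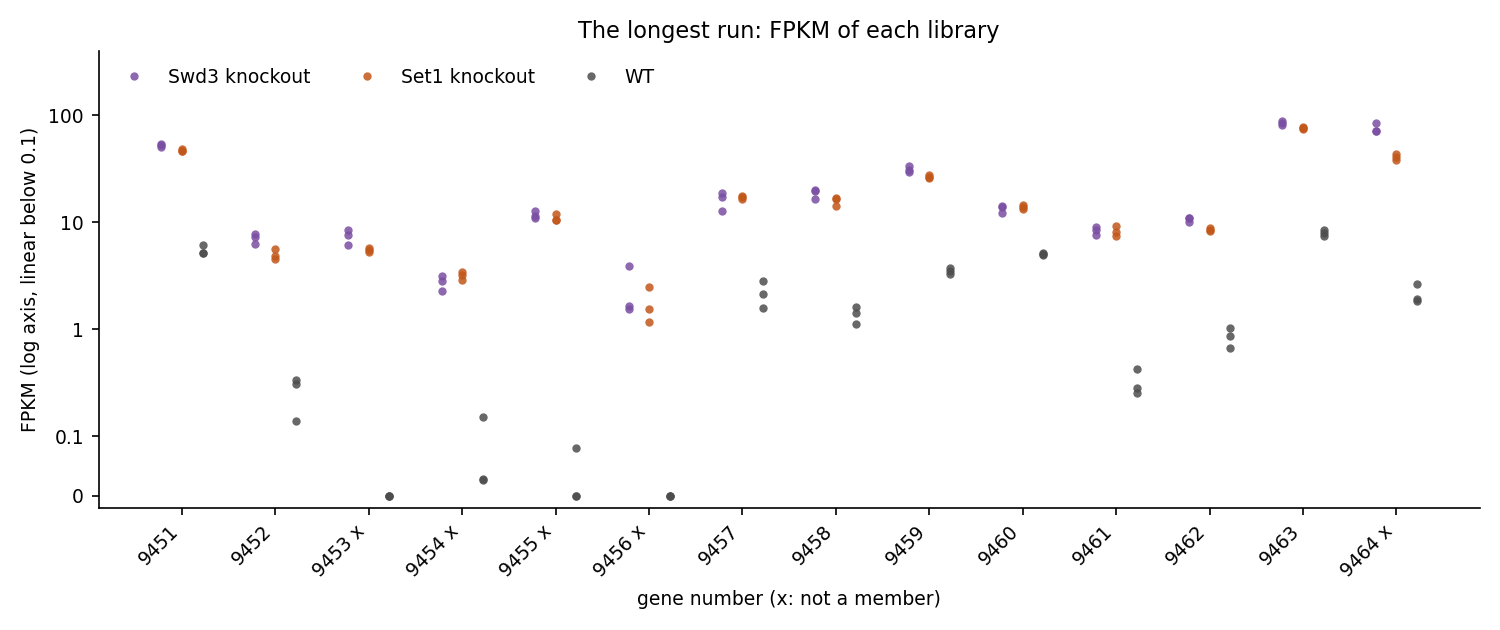
Each point is 1 library's FPKM for 1 gene of the run 9451 to 9464 (log axis, linear below 0.1), with the Swd3 knockout left, the Set1 knockout in the middle and WT right within each gene, and x after a number marks a gene that is not a member. The knockout points lie above the WT points at all 14 genes, and the WT points of gene_9453 and gene_9456 are at 0 in all 3 libraries.

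The run 9654 to 9662 had 9 genes, of which 8 were members. The Swd3 mean was above the Set1 mean at every gene of this run, as it was in 7 of the 21 runs. The highest member, gene_9661, had 62.6, 71.3 and 68.8 FPKM in the Swd3 knockout, 46.8, 48.7 and 51.5 FPKM in the Set1 knockout, and 7.85, 8.10 and 9.08 FPKM in WT. The largest change was that of gene_9655, with 23.8, 23.3 and 21.0 FPKM in the Swd3 knockout, 15.4, 16.0 and 15.1 FPKM in the Set1 knockout, and 0.868, 0.460 and 0.328 FPKM in WT. For both genes the 3 groups are fully separated, with the Swd3 knockout highest. The log2 changes were 2.88 and 2.42 for gene_9661, and 3.93 and 3.41 for gene_9655.

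The run 6862 to 6869 held 8 genes, 6 of them members, and a pair of adjacent genes with large changes. The largest on the log2 scale with 1 FPKM added, that of gene_6867, rested on 44.2, 48.7 and 45.5 FPKM in the Swd3 knockout, 40.8, 41.5 and 41.4 FPKM in the Set1 knockout, and 1.44, 1.90 and 2.14 FPKM in WT. Next to it, gene_6868 had 52.0, 45.6 and 44.1 FPKM in the Swd3 knockout, 42.6, 38.8 and 41.8 FPKM in the Set1 knockout, and 2.65, 1.74 and 2.01 FPKM in WT. These neighbours were alike in level in each group, at 25.3-fold and 22.6-fold over WT for gene_6867 and 22.1-fold and 19.2-fold for gene_6868. Without the added 1 FPKM, gene_6864 had larger ratios, 31.9-fold in the Swd3 knockout and 27.2-fold in the Set1 knockout. The first member of the run, gene_6862, changed less, by 1.66 and 1.45 on the log2 scale.

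In the run 8427 to 8434, also of 8 genes with 6 members, the member with the largest change was gene_8427. It had 9.80, 8.79 and 8.96 FPKM in the Swd3 knockout, 8.97, 7.94 and 8.83 FPKM in the Set1 knockout, and 0.494, 0.282 and 0.347 FPKM in WT. The most abundant in the knockouts, gene_8434, averaged 20.7 ± 3.78 FPKM in the Swd3 knockout, 21.3 ± 2.43 FPKM in the Set1 knockout and 5.26 ± 0.398 FPKM in WT (SD, n = 3 each). Values of the knockouts overlap for both genes, and WT lies below them. Of the genes left out, gene_8433 had 13.4, 10.8 and 12.0 FPKM in the Swd3 knockout, 8.99, 9.76 and 9.49 FPKM in the Set1 knockout, and 0, 0.0374 and 0 FPKM in WT.

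The run 2092 to 2099, of 8 genes with 7 members, differed in that several of its genes were already abundant in WT. Its highest gene, gene_2093, had 652, 708 and 681 FPKM in the Swd3 knockout, 699.7, 718 and 698 FPKM in the Set1 knockout, and 196, 192 and 198 FPKM in WT. The WT level of this gene is the highest of all members, and the knockouts overlap each other but not WT. The ratio was 3.48-fold in the Swd3 knockout and 3.60-fold in the Set1 knockout. The second highest WT level among the members was that of its neighbour gene_2094, which averaged 126 ± 14.0 FPKM in the Swd3 knockout, 112 ± 8.12 FPKM in the Set1 knockout and 53.3 ± 2.76 FPKM in WT (SD, n = 3 each).

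The run's largest change was near its other end. In gene_2098, the values were 25.1, 27.2 and 30.5 FPKM in the Swd3 knockout, 18.5, 19.0 and 20.1 FPKM in the Set1 knockout, and 2.89, 2.99 and 2.24 FPKM in WT. The groups do not overlap, and the log2 changes were 2.95 and 2.45. Next to it gene_2097 missed membership, since its log2 changes, 1.82 and 1.22, differed by 0.60.

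The run 3203 to 3209, of 7 genes with 4 members, contained genes with almost no RNA in WT between genes that had some. The member with the largest change, gene_3208, had 18.3, 17.3 and 17.6 FPKM in the Swd3 knockout, 15.2, 15.9 and 15.8 FPKM in the Set1 knockout, and 0.784, 1.57 and 1.16 FPKM in WT. Its neighbour gene_3207 reached similar knockout levels, 21.1 ± 0.983 and 18.7 ± 1.3 FPKM, but had 6.22 ± 0.860 FPKM in WT (SD, n = 3 each). By contrast gene_3206, a left-out gene, had 24.4, 18.9 and 20.6 FPKM in the Swd3 knockout, 22.8, 17.9 and 21.2 FPKM in the Set1 knockout, and 0.0568, 0 and 0 FPKM in WT. Genes with nearly equal levels in the knockouts thus started from WT levels that differed by several FPKM. In gene_3205, also left out, all 3 WT libraries were listed at 0, against 16.1, 16.1 and 13.3 FPKM in the Swd3 knockout and 12.5, 13.5 and 14.7 FPKM in the Set1 knockout.

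The largest log2 change of all members, with 1 FPKM added, was in a 6-gene run, 400 to 405. For gene_404, the libraries held 1031, 1154 and 1128 FPKM in the Swd3 knockout, 930.1, 937 and 928 FPKM in the Set1 knockout, and 9.38, 10.1 and 10.1 FPKM in WT. Every knockout library stood far above every WT library, and the ratio of means was 112-fold in the Swd3 knockout and 94.5-fold in the Set1 knockout. As a plain ratio, the Set1 change of gene_4796 was slightly larger, at 96.7-fold from a WT mean of 0.127 FPKM. Among all numbered genes, gene_404 held percentile 99.2 in the Swd3 knockout and 98.7 in the Set1 knockout, against 35.5 in WT.

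Its neighbours in number changed far less. The next number, gene_405, averaged 54.6 ± 3.76 FPKM in the Swd3 knockout, 47.7 ± 0.724 FPKM in the Set1 knockout and 4.21 ± 1.03 FPKM in WT (SD, n = 3 each). The number before it, gene_403, averaged 7.39 ± 0.299 FPKM in the Swd3 knockout, 6.83 ± 0.150 FPKM in the Set1 knockout and 1.31 ± 0.161 FPKM in WT. Both were chosen for mention after their values were seen, as neighbours of gene_404. The mean of both log2 changes differed by 5.39 between the most and the least changed member of this run, the widest range of any run.

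Other large changes came from several runs. In gene_8031, the last gene of the run 8027 to 8031, the values were 32.7, 31.0 and 34.0 FPKM in the Swd3 knockout, 33.4, 30.6 and 33.8 FPKM in the Set1 knockout, and 1.22, 0.521 and 0.225 FPKM in WT. The knockouts overlap fully, with a log2 change of 4.34 in each, and the WT values are low and spread. Next in size were gene_6867, described above, gene_1964 and gene_8672.

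For gene_1964, the values were 39.2, 43.9 and 41.8 FPKM in the Swd3 knockout, 34.0, 34.2 and 34.1 FPKM in the Set1 knockout, and 1.31, 1.74 and 1.39 FPKM in WT. The order was the opposite in gene_8672, with 41.9, 41.8 and 40.0 FPKM in the Swd3 knockout, 57.8, 51.9 and 51.9 FPKM in the Set1 knockout, and 1.66, 2.61 and 2.25 FPKM in WT. In both genes the 3 groups are separated, and the log2 changes were 4.11 and 3.83 for gene_1964, and 3.73 and 4.11 for gene_8672. Another gene of the run of gene_1964, gene_1963, was listed at 0 in the second WT library and had 9.20 and 9.64 FPKM in the others, so its WT mean rests on libraries that disagree.

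The smallest log2 changes, with 1 FPKM added, lay just inside the rule. For gene_4216, the values were 24.9, 22.2 and 20.3 FPKM in the Swd3 knockout, 22.9, 21.7 and 22.8 FPKM in the Set1 knockout, and 9.72, 11.0 and 9.02 FPKM in WT. For gene_7127, they were 9.26, 10.8 and 9.49 FPKM in the Swd3 knockout, 8.81, 10.7 and 9.35 FPKM in the Set1 knockout, and 3.96, 4.17 and 3.83 FPKM in WT. WT lay below the knockouts in both, by 2.26-fold in each knockout for gene_4216, and by 2.47-fold in the Swd3 knockout and 2.41-fold in the Set1 knockout for gene_7127. As a plain ratio in the Set1 knockout, the more abundant member gene_2094 changed less, by 2.10-fold. In the Swd3 knockout its ratio was 2.35-fold, and the 2.26-fold of gene_4216 was the smallest of all members. The member nearest the 2-fold limit was gene_9654, with a smaller log2 change of 1.01, and the nearest outside among genes adjoining a run was gene_408, between the runs 400 to 405 and 409 to 414, with 0.99.

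At the lower WT limit, gene_1949 had 3.86, 4.48 and 5.03 FPKM in the Swd3 knockout, 3.43, 4.41 and 3.52 FPKM in the Set1 knockout, and 0, 0.337 and 0 FPKM in WT. The next lowest, gene_4211, had 2.25, 1.76 and 1.98 FPKM in the Swd3 knockout, 2.38, 2.23 and 1.95 FPKM in the Set1 knockout, and 0, 0.339 and 0 FPKM in WT. Either gene is a member because of 1 WT library, since the other 2 list it at 0. Just outside the limit, gene_3199 had a WT mean of 0.0984 FPKM.

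The 24 genes left out because of a low WT level were also lower than the members in the knockouts. Their median levels were 4.39 FPKM in the Swd3 knockout, 4.02 FPKM in the Set1 knockout and 0.0157 FPKM in WT. The highest of them was gene_3206 in both knockouts, and the genes named here are among those with the largest changes. Above their median level, gene_3198 had 15.4, 15.3 and 15.7 FPKM in the Swd3 knockout, 13.3, 12.6 and 15.8 FPKM in the Set1 knockout, and 0.0531, 0.0482 and 0.183 FPKM in WT. The first gene of the run 4792 to 4796, gene_4792, had 14.8, 11.4 and 9.38 FPKM in the Swd3 knockout and 11.6, 12.4 and 11.4 FPKM in the Set1 knockout, and was listed at 0 in all WT libraries. Inside the run 4211 to 4217, gene_4214 averaged 8.05 ± 0.909 FPKM in the Swd3 knockout and 7.91 ± 0.798 FPKM in the Set1 knockout, with 0.205, 0 and 0 FPKM in the WT libraries.

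Members of 1 run differed in the size of their change. A share of 0.05 of the variance in the members' mean log2 change lay between runs (intraclass correlation, 107 members in 21 runs), and the SD within runs was 0.89. For the WT level on the log2 scale the share was 0.16, with an SD within runs of 2.01. The distance between the most and least changed member of a run had a median of 1.97 on the log2 scale, and was smallest, at 0.22, in the run 1949 to 1953. Members of a run thus shared the direction of change, which the rule required, and nearly all of the variance in its size lay within runs. Part of that variance is gene_404, at a mean log2 change of 6.55 in a run whose other members lay between 1.15 and 3.32. The share without gene_404 is not given here.

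Little movement from library to library within a group was shared by members of a run. The correlation of their deviations from the group means over the 9 libraries had a median of 0.04 over the 255 pairs of members in the same run and 0.02 over the 5416 pairs in different runs. These correlations share libraries and are descriptions.

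The difference between the knockouts was, of these 3 measures, the one most alike within runs. A share of 0.34 of the variance in the difference of both log2 changes lay between runs, with an SD within runs of 0.16. This difference, Swd3 minus Set1, was limited by the rule and ran from -0.38 to 0.58 over the members, with a median of 0.11. Over all numbered genes its median was 0.02, and over the 1184 genes raised 2-fold in both knockouts it was 0.04. The Swd3 mean lay above the Set1 mean in 78 of the 107 members (72.9%) and in 59.9% of the 1184 genes.

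In the limma fit, 13 members passed as higher and 1 as lower in the Swd3 knockout relative to the Set1 knockout, against 6.66% called higher and 6.15% lower among all rows tested. Without the second Swd3 library 7 members were called, all higher, without the third Set1 library 8, and without the first Set1 library 9. The shares of all rows called in either direction also fell, to 8.01%, 8.28% and 9.96% in these settings, from 12.8% with all libraries. The Swd3 values lay above all Set1 values in 36 members and below them in 3, against 15.8% and 12.4% of all rows. The rule restricted this difference, so the counts describe the members as chosen.

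**Figure D4:**
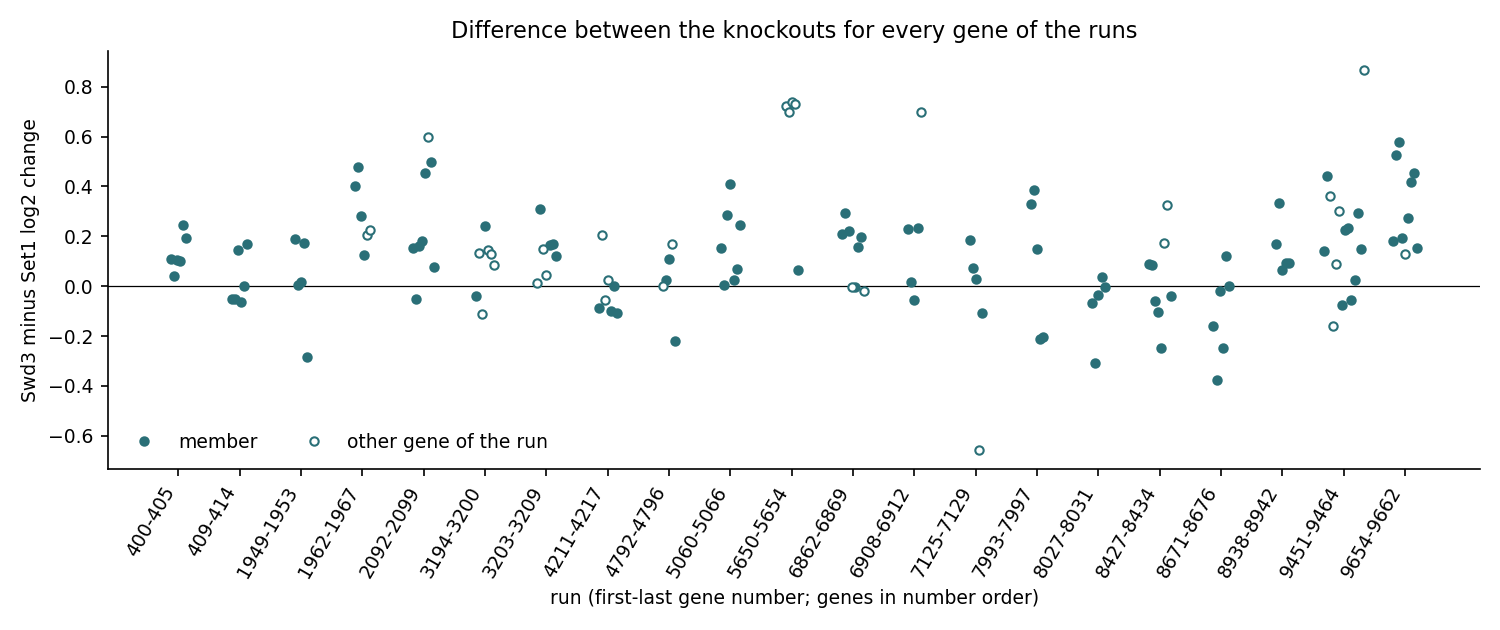
Points are the difference between the log2 changes of the Swd3 knockout and the Set1 knockout for each gene of the 21 runs, in number order within a run, filled for members and open for other genes of the run. The first 4 genes of the run 5650 to 5654 lie together at 0.70 to 0.74, while points of the run 8671 to 8676 lie mostly around or below 0.

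The run 5650 to 5654 shows how the limit on this difference divided a run. Its highest gene, gene_5653, chosen for mention after its values were seen, had 427, 414 and 377 FPKM in the Swd3 knockout, 259.8, 235 and 237 FPKM in the Set1 knockout, and 42.2, 35.1 and 40.8 FPKM in WT. All 3 groups are apart, and the log2 changes were 3.33 and 2.60. The 3 genes before it had differences between the knockouts of 0.72, 0.70 and 0.74, close to its own 0.73, so the first 4 genes of the run were left out. The only member of the run, gene_5654, had far less RNA, 3.03 ± 0.347 FPKM in the Swd3 knockout, 2.85 ± 0.499 FPKM in the Set1 knockout and 0.181 ± 0.0124 FPKM in WT (SD, n = 3 each), and a difference of 0.07.

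Among members, the difference was widest in gene_9656, with 12.0, 13.6 and 13.4 FPKM in the Swd3 knockout, 8.51, 8.07 and 8.62 FPKM in the Set1 knockout, and 2.17, 2.57 and 2.38 FPKM in WT. The groups are separated, and the difference of 0.58 was the nearest to the limit from inside. The median difference over the members of its run, 9654 to 9662, was 0.34, as it was in the run 1962 to 1967. In the run 8671 to 8676, by contrast, the median difference was -0.09, and in the run 4211 to 4217 it was -0.09 over its members.

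Genes just outside the runs were called higher more often than lower. Within 5 numbers on either side, and outside any run, lay 165 genes, of which 148 passed the filter. In the Swd3 knockout, 95 of these (64.2%) were called higher and 28 (18.9%) lower. The Set1 knockout gave the same counts. The shares over all rows tested were 38.2% higher and 42.5% lower for the Swd3 knockout, beside 37.8% higher and 43.3% lower for the Set1 knockout. Among the 165, 34 (20.6%) were at least 2-fold higher in both knockouts and 10 (6.06%) at least 2-fold lower, beside 13.3% and 8.02% of all numbered genes. Their median log2 changes were 0.57 in the Swd3 knockout and 0.51 in the Set1 knockout. Their WT levels had a median of 6.22 FPKM, and 35 of them (21.2%) were under 1 FPKM in WT, beside 10.3% of all numbered genes. The gene next to a run must, by the rule, miss the 2-fold limit in at least 1 knockout, and 32 of the 42 adjoining numbers have a row.

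Outside the runs the change did not decline evenly with distance. Among the first genes outside, the median log2 change was 0.33 in the Swd3 knockout and 0.22 in the Set1 knockout. At a distance of 3 numbers it was 0.61 and 0.66, at 4 numbers 0.66 and 0.51, and at 6 numbers 0.45 and 0.44. At 7 numbers it was 0.16 and 0.10, at 8 numbers 0.29 and 0.23, and at 10 numbers 0.02 and 0.09. At the first 3 places inside a run the medians lay between 1.93 and 2.35 in the Swd3 knockout and between 1.80 and 2.24 in the Set1 knockout. In front of the run 8027 to 8031 the direction turned. There gene_8025, chosen for mention after its values were seen, averaged 23.9 FPKM in the Swd3 knockout, 20.2 FPKM in the Set1 knockout and 203 FPKM in WT, a log2 change of -3.03 and -3.27.

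**Figure D5:**
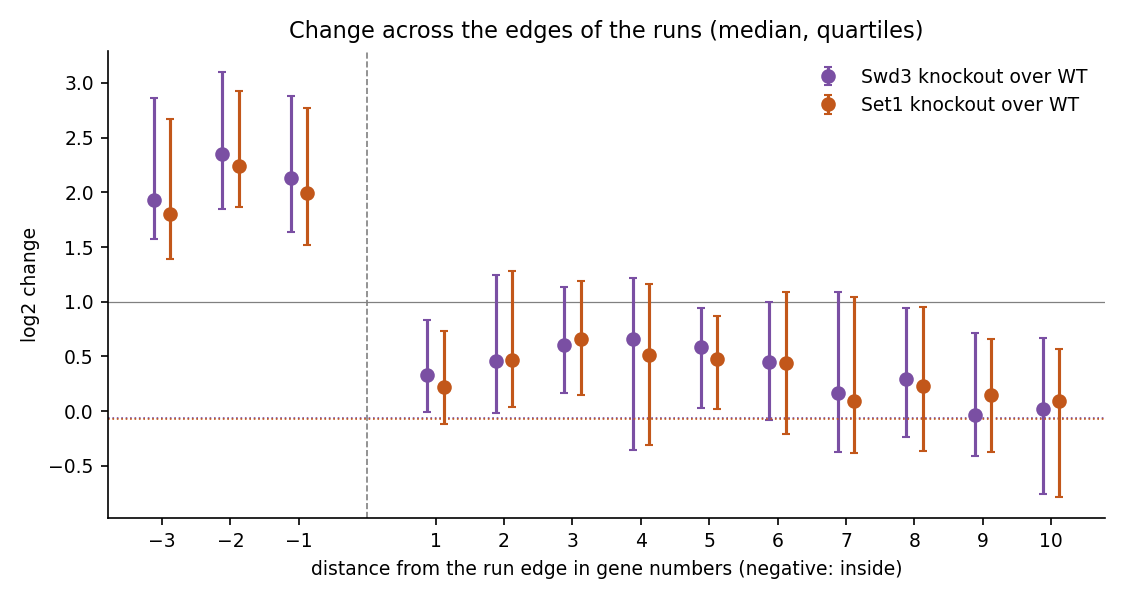
Points are the median log2 change over WT in the Swd3 knockout and the Set1 knockout at each distance in gene numbers from a run edge (negative inside the run), and error bars are the quartiles over 30 to 42 genes. Dotted lines are the medians over all numbered genes, the thin solid line is the 2-fold limit of the rule, and the dashed line is the edge. Outside the edge the medians lie between 0.10 and 0.66 from 2 to 8 numbers away, and between -0.04 and 0.15 at 9 and 10.

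Neighbours in number resembled each other over the whole table. Across pairs of genes 1 number apart, the correlation of the log2 change was 0.40 in the Swd3 knockout and 0.38 in the Set1 knockout (7989 pairs). It was 0.35 and 0.33 over the 7839 pairs outside the runs. At 5 numbers apart it was 0.15 and 0.13, at 10 numbers 0.10 in each knockout, and at 20 numbers 0.01 in each. The WT level on the log2 scale had a correlation of 0.25 at 1 number apart and -0.01 at 20. Genes are not independent replicates, and these values share all 9 libraries, so they are given as descriptions over genes.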

How the data were processed

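The values deposited by the authors are FPKM, in one table that holds each library as a column. The tools named, per the submitters' processing notes, are HISAT2, StringTie and FastQC. Tool versions, genome build, annotation and strand setting: not given in the sources used here. No column lacked a sample. Read counts and depth are unknown, so no counting interval was computed. A value of exactly 0 can be a failed estimate and is given as listed at 0.

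The rule for runs was applied to group means of FPKM. The log2 change is the log2 of the ratio of 2 means after adding 1 FPKM, which understates changes of low genes. Calls came from limma 3.58.1 in R 4.3.3 on log2(FPKM + 1), with a mean per group, all 9 libraries and an intensity trend, for rows with at least 1 FPKM in at least 3 libraries. This left 9153 rows tested and 716 not tested. P-values are two-sided with Benjamini-Hochberg adjustment over all rows tested, at 0.05. The members, the rule and the choice of measures were made with earlier results of these data known. Since the rule used both knockout means and the WT mean, no p-value is given as support for the members' changes.

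Genes named are, in the 6 longest runs (ties by the larger median change), the member with the highest knockout level and the one with the largest change, plus the 5 largest and 3 smallest changes, the 2 highest and 2 lowest WT levels, the 3 widest differences between knockouts, up to 8 left-out genes, and those nearest a limit. All other genes named were chosen after their values were seen. Replicate numbers come from the sample titles and mark no stated batch. Deviations of same-numbered libraries correlated above 0.1 in 4 of 9 pairs, at most 0.295, which does not settle whether the numbers mark a pairing. The labels state none, so the main fit used none, and a fit with the number as a block is given below. Alternatives covered the added constant, 3 scalings, the fold and length limits, gaps, the filter, the fit and each library left out.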

Additional observations from a re-analysis of the deposited data

Results flagged for a closer look

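The limma test of the difference between the knockouts passed an adjusted p of 0.05 for 8 of 30 named genes. The 30 leave out genes named only for lying near a limit or chosen after their values were seen. All 8 are given as descriptions. Among members the rule limited this difference, and gene_9464 was left out of the members for exceeding the limit. For gene_2098, gene_9655 and gene_9656, the same difference was a reason for naming them, so their adjusted p-values support nothing. In log2 units, Swd3 minus Set1, the difference was 0.87 (SE 0.10, adjusted p = 6.38e-05) for gene_9464, which is no member. In the run 9654 to 9662 it was 0.52 for gene_9655, 0.58 for gene_9656 and 0.45 for gene_9661, with adjusted p of 0.0106, 0.000944 and 0.000926. It was 0.50 for gene_2098 (adjusted p = 0.0049), 0.24 for gene_404 (adjusted p = 0.005) and 0.28 for gene_1964 (adjusted p = 0.0413). The one gene with the Set1 knockout higher was gene_8672, at -0.38 (adjusted p = 0.0249). In all 8 genes the 3 values of one knockout lay on one side of the 3 values of the other. Among all rows tested, 6.66% were called higher and 6.15% lower in the Swd3 knockout. The Swd3 values lay above all Set1 values in 15.8% of these rows and below them in 12.4%.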

How the results depend on the processing

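The number of runs depends on the settings of the rule more than on single libraries. Leaving out 1 library at a time gave 20 to 24 runs with 101 to 119 members, and 91 of the 107 members were found in all 9 such settings. An added constant of 0.1 FPKM gave 36 runs with 181 members, and a limit of 1.5-fold gave 50 with 280. A limit of 3-fold gave 7 with 24, and runs of at least 4 genes gave 41 with 175. Runs of at least 6 genes numbered 13, and allowing 1 gene under the limit gave 36 runs with 185 members. Quantile normalization gave 11 runs with 58 members, of which 42 were among the 107. Under it the median log2 change over all numbered genes was -0.09 in each knockout, and 22 of the 107 members fell below 2-fold in at least 1 knockout. The members' median changes under it were 1.70 in the Swd3 knockout and 1.69 in the Set1 knockout, and the smallest were 0.37 and 0.44. Scaling by median of ratios gave 25 runs and scaling to a common total 21. The cause of these differences was not tested.

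All 107 members were called higher in both comparisons with WT in the settings run, except 106 in the Set1 comparison under quantile normalization and the 86 that passed a filter at 5 FPKM. Between the knockouts, 14 members were called, 9 with a constant of 0.1 FPKM, and 7 to 18 with 1 library left out. The shares over all rows tested in the same settings were 12.8%, 12.1%, and 8.01% to 13.6%. Leaving out 1 library moved the calls among the 148 flanking genes tested between 112 and 124 for the Swd3 knockout. For the Set1 knockout they moved between 114 and 124, and the main fit gave 123 in each. Of all rows tested, 77.4% to 80.7% were then called for the Swd3 knockout and 77.6% to 82.0% for the Set1 knockout. With the replicate number as a block, 107, 107 and 15 members were called, and the flanking genes called were 125 and 124. The shares of all rows called with this block were 82.14% for the Swd3 knockout and 82.17% for the Set1 knockout against WT. Between the knockouts the share was 14.96%. Of the named differences between the knockouts, those of gene_1964, gene_8672 and gene_9655 missed the threshold in some settings, 19 times in all, and 0 reversed. The missing depth limits all values near 0 FPKM.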
